A study of Mus musculus with 6 samples.

Results

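Mitosis genes were followed in the hearts of newborn mice whose mothers had or had not been given streptozotocin in pregnancy. The set holds 40 genes of 54532 in the deposited table, chosen by symbol for their role in cell division: transcription factors, entry kinase and cyclins, Aurora kinases, checkpoint, kinetochore, spindle and cytokinesis. Every one of the 40 had 1 row and passed the filter on low values, as did 12431 genes in all. RNA was sequenced from the hearts of wild-type (WT) ICR mice, an outbred stock, at day 4. The control group (n = 3) were offspring of mothers that received citric acid into the peritoneum while pregnant. The STZ group (n = 3) were offspring of mothers given STZ by the same route, read here as streptozotocin, a toxin of pancreatic beta cells used to make animals diabetic. Its dose, the day of injection and the mothers' blood glucose are not in the labels used here. Nor do they say whether hearts came from separate litters, so p-values measure only the spread between these 6 samples. The series asks how diabetes in pregnancy affects the offspring's heart.

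Cells enter mitosis when cyclin-dependent kinase 1, bound to A and B cyclins, becomes active. The spindle then captures each chromosome at its kinetochore, a checkpoint holds the cell until all are attached, and the anaphase-promoting complex (APC/C) tags securin and cyclin B for destruction so that the chromatids part and the cell splits. Most of these genes are transcribed in G2 and M phase, under the factors B-Myb and FoxM1. In the newborn mouse heart, cardiomyocytes go through their last divisions in the days after birth, and many divide their nucleus without splitting the cell. Fibroblasts and endothelial cells go on dividing.

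Values are FPKM, reads per kilobase of gene, relative to a scale the authors set for each library. Each library holds 16707268 to 18082599 whole reads when these are recovered from the values, with between 70 (Cdc25c) and 5200 (Mki67) reads for any of the 40 genes in any library. In control 2 that scale exceeded the recovered reads 1.21-fold (0.985- to 1.03-fold elsewhere), so control 2 reads lower in FPKM than its own reads would give. This library also stood apart in tissue. Thymocyte markers, which belong to developing T cells of the thymus, summed to 144 FPKM there and to between 1.0 and 3.0 FPKM in the other 5 libraries. All 10 thymocyte markers were highest in control 2. Cd8b1, a chain of the CD8 co-receptor, was at 31.5 FPKM in control 2, and Rag1, which rearranges receptor genes, at 25.5 FPKM. In the other libraries neither exceeded 0.536 FPKM, and Dntt, Ptcra and Rag2 were each listed at 0 in control 1. Atrial markers summed to 6249 FPKM in control 2 against at most 124 FPKM elsewhere, and cardiomyocyte markers to 8157 FPKM against at least 16059 FPKM. Erythroid markers summed to 14548 FPKM in control 2 and to between 2229 and 4927 FPKM elsewhere. Control 3 was the only library with reads of Xist above 18, at 22184, and the only one with 0 reads of 4 Y-linked genes, where the others had at least 3856. Sln and Myl7, which mark atrial muscle, were at 278 and 3930 FPKM in control 2. In the other 5 libraries labelled as heart they were at no more than 0.866 and 18.3 FPKM. Nppa, another atrial marker, was at 1389 FPKM in control 2 and at 20.2 to 96.4 FPKM in the other 5. In bulk RNA, more dividing cells and more of these transcripts per cell cannot be told apart.

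Most mitosis genes were lowest in control 1 or 2 and highest in control 3. On the log2(FPKM + 1) scale, all 40 members were below their own 6-library mean in control 1, and 35 of 40 were below it in control 2. All 40 were above it in control 3 and in STZ 3, with 26 above it in STZ 1 and 28 in STZ 2. The places of control 2 and STZ 2 depended on the scaling. In control 2, 24 of 40 were below their mean when scaled to the recovered reads and 34 of 40 with TMM. In STZ 2, 19 of 40 were above their mean when scaled to the recovered reads and 24 of 40 with TMM. STZ 1 had 24 and 25 above in these scalings, and STZ 3 had 39 in each. Control 1 stayed at 40 below and control 3 at 40 above under both. Of all genes tested, 55.3% were above their mean in control 1, 42.2% in control 2, 54.1% in control 3, 56.5% in STZ 1, 55.4% in STZ 2 and 53.0% in STZ 3. On the authors' scale, control 3 held the highest of the 6 values for 34 of 40 members (14.4% of all genes tested). Control 1 or 2 held the lowest for 40 of 40 (53.3% of all genes tested). On that scale, control 3 exceeded the mean of controls 1 and 2 by 1.64-fold at the median gene. The ratio ran from 1.01-fold for Pttg1 to 2.32-fold for Hmmr. Scaled to the recovered reads, Plk1, Cenpa and Ttk were no longer highest in control 3. Pttg1 was then at 8.34, 16.9 and 11.5 in controls 1 to 3, and Mybl2 at 3.21, 4.22 and 3.65.

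**Figure D1:**
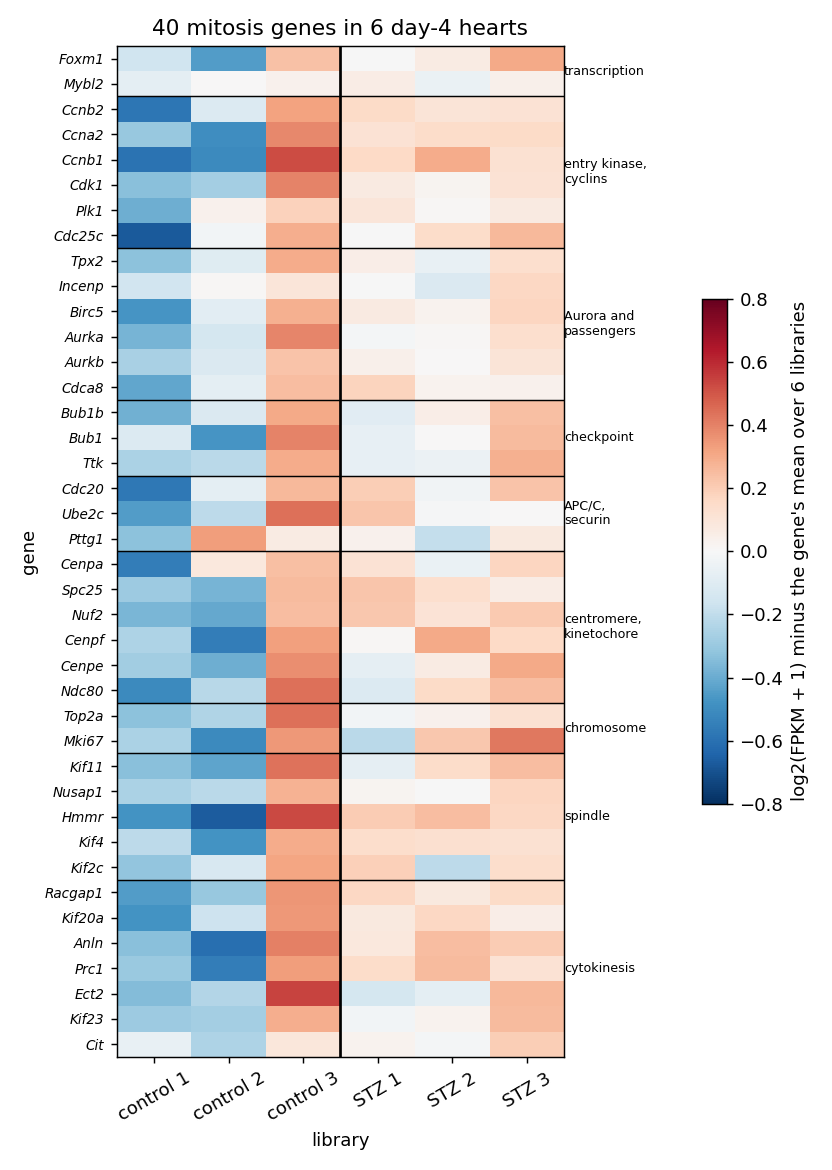
Each row is a mitosis gene, grouped by role, and each column a heart. Colour gives each heart's log2(FPKM + 1) less the average of that gene; control 1 is blue in 40 of 40 rows, control 3 and STZ 3 are red in 40 of 40.

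Summed over the 40 genes, the level was 323, 360 and 550 FPKM in controls 1 to 3 and 453, 451 and 486 FPKM in STZ 1 to 3. The 3 STZ hearts lay close together, above controls 1 and 2 and below control 3. Scaled to the recovered reads, the sums were 319, 435 and 557 in controls 1 to 3 and 459, 454 and 499 in STZ 1 to 3, which put control 2 just under STZ 1 and STZ 2 and left control 1 as the low heart. All 3 STZ values fell inside the control range for 35 of 40 members (32.3% of all genes tested). They lay above both control 1 and control 2 for 34 of 40 (13.0% of all genes tested), but for 19 of 40 when values were scaled to the recovered reads, which raises control 2. Within the control group the coefficient of variation of a member was 32.0% at the median, against 7.34% among STZ hearts; over all genes tested it was 17.8% and 9.56%. The SD was larger in control for 38 of 40 members (73.9% of all genes tested). Without control 2, the library with thymocyte and atrial transcripts, all 3 STZ values lay between controls 1 and 3 for 34 of 40 members, and control 3 was highest for 34 of 40. By its Xist reads and its 0 reads of Y-linked genes, control 3 is read here as the only female heart. Controls 1 and 2 and all 3 STZ hearts had Y-linked reads. Control 3 is 1 library, so its sex and any other property of that heart cannot be told apart.

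The promoters of these genes were searched for the short elements through which G2/M genes are commonly controlled. These are the cell cycle genes homology region, searched as TTTGAA and TTCGAA, and the CCAAT box, which binds the factor NF-Y; no motif contains another and both strands were read. RefSeq windows on GRCm38.p6 were found for 33 of the 40 members, and the 250 bases before each start site were used. CCAAT was present for 24 of 33 genes (72.7%), against 37.5% of the 27025 genes in the promoter table and 40.8% of those also tested here. TTTGAA or TTCGAA was present for 11 of 33 (33.3%), against 19.6% and 14.3%. Both kinds were present for 10 of 33 (30.3%), against 7.0% and 5.69%. Among DNA replication genes, CCAAT was present for 17 of 25 (68.0%), near the share of the members. TTTGAA or TTCGAA was present there for 5 of 25 (20.0%), and both kinds for 4 of 25 (16.0%). The part of these elements in the levels from heart to heart was not tested. A match is a run of letters, not a shown binding site. The 5 windows below were chosen, after their matches were seen, among those of named members that overlap no annotated exon. They show the range from many matches to none, written 5′ to 3′ with matches on either strand in capitals:

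Ccnb2 (chr9:70421555-70421804, minus strand): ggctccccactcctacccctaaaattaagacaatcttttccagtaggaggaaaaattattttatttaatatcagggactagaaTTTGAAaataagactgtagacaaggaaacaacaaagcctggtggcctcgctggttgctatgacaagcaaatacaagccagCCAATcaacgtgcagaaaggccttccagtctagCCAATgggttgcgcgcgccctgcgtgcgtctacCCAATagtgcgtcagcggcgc
Top2a (chr11:99024190-99024439, minus strand): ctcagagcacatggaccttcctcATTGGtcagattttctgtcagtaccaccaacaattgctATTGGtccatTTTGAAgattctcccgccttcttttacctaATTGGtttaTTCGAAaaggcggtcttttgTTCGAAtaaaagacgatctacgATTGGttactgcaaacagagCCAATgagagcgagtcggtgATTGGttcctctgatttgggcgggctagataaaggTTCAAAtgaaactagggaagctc
Mki67 (chr7:135716380-135716629, minus strand): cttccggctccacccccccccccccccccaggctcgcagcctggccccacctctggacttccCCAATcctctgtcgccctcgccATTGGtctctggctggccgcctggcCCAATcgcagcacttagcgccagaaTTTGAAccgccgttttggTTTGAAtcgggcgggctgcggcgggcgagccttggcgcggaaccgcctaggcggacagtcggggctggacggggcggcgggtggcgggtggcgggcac
Kif11 (chr19:37376132-37376381, plus strand): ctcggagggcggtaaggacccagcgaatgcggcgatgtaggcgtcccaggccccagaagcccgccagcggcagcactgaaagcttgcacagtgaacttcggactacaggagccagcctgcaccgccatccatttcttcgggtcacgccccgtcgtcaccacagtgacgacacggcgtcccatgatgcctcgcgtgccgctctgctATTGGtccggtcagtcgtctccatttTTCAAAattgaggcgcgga
Nuf2 (chr1:169531465-169531714, minus strand): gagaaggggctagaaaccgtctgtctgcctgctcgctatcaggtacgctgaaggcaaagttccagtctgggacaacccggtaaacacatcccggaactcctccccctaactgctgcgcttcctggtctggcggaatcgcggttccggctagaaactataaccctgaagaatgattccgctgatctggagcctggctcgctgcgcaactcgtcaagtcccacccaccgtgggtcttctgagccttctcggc

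In Ccnb2, which encodes cyclin B2, the CCAAT boxes begin 87, 54 and 21 bases before the start site, each 33 bases from the next. Top2a holds 6 CCAAT boxes and 4 copies of TTTGAA or TTCGAA, and Mki67 holds 3 and 2. Kif11 has 1 of each, with TTTGAA beginning 19 bases before the start. Nuf2 has no match in this window.

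Between the groups, 39 of 40 members had a higher mean log2 level in STZ hearts and 1, Pttg1, a lower one, but no member passed the test. With limma, 0 of 40 were past a Benjamini-Hochberg (BH) adjusted p of 0.05 (0.0241% of all genes tested, 0.0161% higher and 0.00804% lower in STZ), and 0 of 40 had an unadjusted p under 0.05 (2.59% of all genes tested); voom on the recovered reads also gave 0 and 0. The median log2 fold change, STZ over control on the log2(FPKM + 1) scale, was 0.18 over the members and 0.031 over all genes tested, 57.7% of which were above 0. The values ran from -0.05 for Pttg1 to 0.41 for Hmmr, with BH-adjusted p between 0.922 and 0.989. No member had groups that did not overlap (8.54% of all genes tested, 4.92% with STZ above and 3.62% with STZ below). The 95% intervals reached from -0.56 (Ect2) to 1.12 (Hmmr), so these data bound a fold change in either direction only loosely. When values were scaled to the recovered reads, 36 of 40 were higher, Incenp, Ect2 and Mybl2 joined Pttg1 below 0, and the median was 0.12. Markers of cell types were also compared between the groups, and 0 passed the BH threshold (limma). Fibroblast markers had log2 fold changes below 0 for 8 of 8 (median -0.41, 4 with no overlap, 2 at an unadjusted p under 0.05), and without control 2 still for 8 of 8 (median -0.19). Erythroid markers were below 0 for 6 of 6 tested (median -1.01, and -0.39 without control 2), and macrophage markers for 8 of 8 (median -0.20, and 0.041 without control 2). Cardiomyocyte markers were above 0 for 10 of 10 (median 0.36), and without control 2 for 7 of 10 (median 0.024). Endothelial markers were above 0 for 3 of 8 (median -0.026), and without control 2 for 0 of 8 (median -0.068). Smooth muscle and pericyte markers were above 0 for 2 of 5 tested (median -0.0058), and without control 2 for 1 of 5 (median -0.085). Epicardial markers were above 0 for 2 of 8 (median -0.51), and without control 2 for 1 of 8 (median -0.19). Atrial markers were below 0 for 5 of 5 tested (median -1.36, and 0.26 without control 2). Besides fibroblast markers, 2 epicardial, 1 macrophage and 1 smooth muscle and pericyte marker had an unadjusted limma p under 0.05. Groups did not overlap for 1 macrophage marker, lower in STZ. For epicardial and for smooth muscle and pericyte markers, 1 was higher and 1 lower without overlap. The other marker lists had 0 of either kind. The part of these cell types in the values of the mitosis genes was not tested.

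The size of the difference depended on which control hearts were used. Without control 1 the median over members was 0.018 and 24 of 40 were higher, and without control 2 it was 0.096 with 37 of 40 higher. Without control 3 it was 0.39 with 39 of 40 higher. There 21 of 40 had an unadjusted p under 0.05, all higher in STZ (5.60% of all genes tested in either direction, 2.82% higher), and 0 passed the BH threshold (0.0326% of all genes tested; limma, lowest adjusted p 0.568).

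**Figure D2:**
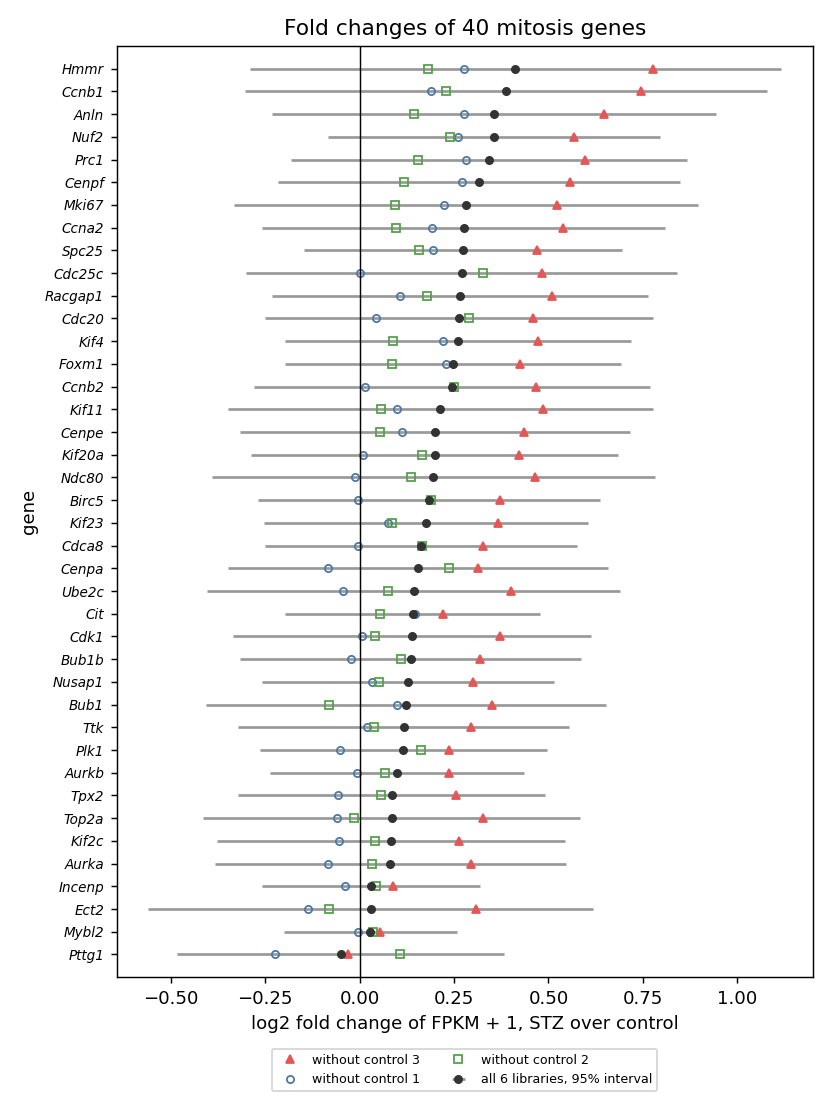
Log2 fold change of FPKM + 1, STZ over control, for the 40 genes. Black points with bars are the limma estimate and its 95% interval from all 6 libraries, each of which crosses 0; coloured marks are the estimates without control 1, 2 or 3, with those without control 3 the farthest to the right of the 3 for 39 of 40 genes.

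The transcription factors that switch on the others showed unequal patterns. Foxm1 (chromosome 6, 128362967 to 128376146, plus strand, GRCm38) stood at 7.88, 6.28 and 10.7 FPKM in controls 1 to 3 and 8.90, 9.39 and 11.2 FPKM in STZ 1 to 3. Control 2 was lowest and STZ 3 highest, and the groups overlapped (log2 fold change 0.25 with SE 0.187; BH-adjusted p by limma = 0.922). Mybl2, which encodes B-Myb, varied little from heart to heart on the authors' scale. Its values there were 3.26, 3.50 and 3.61 FPKM in controls 1 to 3 and 3.68, 3.33 and 3.63 FPKM in STZ 1 to 3. Scaled to the recovered reads, Mybl2 was at 3.21, 4.22 and 3.65 in controls 1 to 3. The STZ values were then 3.72, 3.35 and 3.72, so control 2 was highest. On the authors' scale the log2 fold change of Mybl2 was 0.028 (SE 0.0962, 95% interval -0.20 to 0.26), the narrowest interval of the 40.

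Cdk1 and its partners start mitosis. Ccnb2 (chromosome 9, 70407692 to 70421547, minus strand) stood at 17.0, 23.9 and 32.7 FPKM in controls 1 to 3 and 28.9, 27.8 and 28.1 FPKM in STZ 1 to 3. Its STZ values were nearly equal, and control 1 was lowest and control 3 highest. Ccnb2 stood at 24.5 ± 7.85 FPKM on average in controls against 28.3 ± 0.556 FPKM with STZ (± SD over 3 hearts, here and below; log2 fold change 0.24 with SE 0.220; BH-adjusted p by limma = 0.922). Ccnb1 (chromosome 13, 100778650 to 100786570, minus strand), encoding the main B cyclin, was at 9.07, 9.63 and 20.8 FPKM in controls 1 to 3 and 15.9, 17.6 and 15.5 FPKM in STZ 1 to 3. Controls 1 and 2 were the lowest and control 3 the highest, so the STZ values sat in a gap between them (log2 fold change 0.39 with SE 0.291; BH-adjusted p by limma = 0.922). Without control 3 the Ccnb1 value was 0.74 and without control 1 0.19. Ccna2, encoding the cyclin of S phase and G2, was at 18.0, 15.7 and 29.7 FPKM in controls 1 to 3 and 24.5, 25.1 and 25.1 FPKM in STZ 1 to 3. The kinase gene Cdk1 itself was at 13.3 ± 4.23 FPKM on average in controls against 14.3 ± 0.475 FPKM with STZ (log2 fold change 0.14 with SE 0.199). Plk1, a kinase that acts on centrosomes and kinetochores, was at 12.9 ± 2.74 FPKM on average in controls against 13.9 ± 0.470 FPKM with STZ (log2 fold change 0.12 with SE 0.160). Cdc25c, whose phosphatase activates Cdk1, was lowest of this group, at 3.73 ± 1.5 FPKM on average in controls against 4.51 ± 0.502 FPKM with STZ (log2 fold change 0.27 with SE 0.240). On the authors' scale all 6 genes of this role were highest in control 3 (14.4% of all genes tested). On that scale 5 of 6 were lowest in control 1 (1434 of the 12431 genes tested). Scaled to the recovered reads, Plk1 was higher in control 2, at 16.5, than in control 3, at 15.4.

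Aurora kinases build the spindle and correct faulty attachments. Tpx2, which activates Aurora A, stood at 10.6, 12.6 and 17.0 FPKM in controls 1 to 3 and 14.1, 13.0 and 15.1 FPKM in STZ 1 to 3. Control 3 again led and control 1 was lowest (log2 fold change 0.085 with SE 0.171; BH-adjusted p by limma = 0.936). Birc5, encoding survivin of the chromosomal passenger complex, was at 7.42, 10.02 and 13.2 FPKM in controls 1 to 3 and 11.3, 10.9 and 12.2 FPKM in STZ 1 to 3. On the authors' scale its 3 STZ values lay between controls 2 and 3 (log2 fold change 0.18 with SE 0.191). Scaled to the recovered reads, control 2 was at 12.1, above STZ 1 at 11.4 and STZ 2 at 11.0. Of the other members of this role, Aurka was at 9.88 ± 3.04 FPKM on average in controls against 10.2 ± 0.641 FPKM with STZ, Aurkb at 8.62 ± 1.72 FPKM on average in controls against 9.20 ± 0.345 FPKM with STZ and Cdca8, encoding borealin, at 6.65 ± 1.75 FPKM on average in controls against 7.43 ± 0.508 FPKM with STZ. Incenp, the scaffold of the same complex, spread less, at 11.9 ± 1.12 FPKM on average in controls against 12.2 ± 1.31 FPKM with STZ, and was highest in STZ 3. Without control 1 all 6 had a log2 fold change below 0, with a median of -0.023 in place of 0.092.

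The checkpoint kinases hold anaphase until every chromosome is attached. Bub1b, encoding BubR1, stood at 8.64, 10.6 and 14.5 FPKM in controls 1 to 3 and 10.8, 12.1 and 13.9 FPKM in STZ 1 to 3. On the authors' scale STZ 3 was near control 3, and STZ 1 near control 2 (log2 fold change 0.14 with SE 0.190, BH-adjusted p by limma = 0.922). Bub1 was at 7.19 ± 2.5 FPKM on average in controls against 7.69 ± 1.04 FPKM with STZ and Ttk, encoding Mps1, at 3.12 ± 0.924 FPKM on average in controls against 3.43 ± 0.627 FPKM with STZ. Bub1 turned from 0.12 to -0.082 without control 2, in which it was lowest.

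Cdc20 and Ube2c serve the APC/C, as its activator and its ubiquitin-conjugating enzyme. Cdc20 (chromosome 4, 118432901 to 118437352, minus strand) had the highest mean of the 40, at 17.6, 25.2 and 32.0 FPKM in controls 1 to 3 and 30.6, 26.1 and 31.4 FPKM in STZ 1 to 3. STZ 1 and STZ 3 were close to control 3, while control 1 was lowest (log2 fold change 0.26 with SE 0.216; BH-adjusted p by limma = 0.922). Ube2c was at 18.2, 21.6 and 34.5 FPKM in controls 1 to 3 and 29.5, 24.9 and 25.3 FPKM in STZ 1 to 3. Pttg1, encoding securin, departed from the common order, at 8.46, 14.0 and 11.4 FPKM in controls 1 to 3 and 11.2, 9.40 and 11.5 FPKM in STZ 1 to 3. Its highest value lay in control 2, the library with thymocyte transcripts. The part of thymocyte and erythroid cells in the control 2 values of Pttg1, or of any other member, was not tested. For Pttg1 the groups overlapped (log2 fold change -0.05 with SE 0.182), and the sign changed, to 0.11, without control 2.

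At the kinetochore, Nuf2 had the lowest unadjusted p of the 40 genes, at 0.0964. Nuf2 (chromosome 1, 169497934 to 169531464, minus strand), a subunit of the Ndc80 complex that grips microtubules, stood at 3.61, 3.47 and 6.03 FPKM in controls 1 to 3 and 5.89, 5.42 and 5.86 FPKM in STZ 1 to 3. The STZ values were level with control 3 and well above controls 1 and 2 (log2 fold change 0.36 with SE 0.185, 95% interval -0.083 to 0.79; BH-adjusted p by limma = 0.922). Its partners in that complex were Spc25, at 9.30 ± 2.57 FPKM on average in controls against 11.2 ± 0.695 FPKM with STZ (log2 fold change 0.27 with SE 0.177), and Ndc80, at 2.88 ± 1.36 FPKM on average in controls against 3.30 ± 0.541 FPKM with STZ (log2 fold change 0.20 with SE 0.247). Cenpa, the histone H3 variant that marks the centromere, was at 7.59, 12.4 and 13.9 FPKM in controls 1 to 3 and 12.7, 11.2 and 13.2 FPKM in STZ 1 to 3. Here control 2 lay with the STZ hearts and control 1 alone was low, so that without control 1 the log2 fold change went from 0.15 to -0.084. Cenpe, a kinetochore motor, was at 4.15 ± 1.56 FPKM on average in controls against 4.79 ± 0.770 FPKM with STZ, and Cenpf, an outer kinetochore protein, at 4.22 ± 1.66 FPKM on average in controls against 5.31 ± 0.636 FPKM with STZ. On the authors' scale all 6 genes of this role were highest in control 3 (14.4% of all genes tested). Scaled to the recovered reads, Cenpa was higher in control 2, at 14.9, than in control 3, at 14.1.

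Top2a and Mki67 are the common marks of dividing cells. Top2a (chromosome 11, 98992943 to 99024189, minus strand), encoding the topoisomerase that untangles sister chromatids, stood at 17.3, 18.5 and 30.2 FPKM in controls 1 to 3 and 21.6, 22.5 and 23.96 FPKM in STZ 1 to 3. On the authors' scale controls 1 and 2 were lowest and control 3 highest (log2 fold change 0.085 with SE 0.210, BH-adjusted p by limma = 0.944). Scaled to the recovered reads, control 2 was at 22.3, above STZ 1 at 21.9. Mki67 (chromosome 7, 135689784 to 135716361, minus strand), encoding the Ki-67 protein that coats mitotic chromosomes, was at 17.0, 14.1 and 26.4 FPKM in controls 1 to 3 and 17.5, 23.997 and 27.9 FPKM in STZ 1 to 3. Unlike most members it also varied among STZ hearts, where STZ 1 was level with control 1 and STZ 3 was the highest of all 6 (log2 fold change 0.28 with SE 0.258; BH-adjusted p by limma = 0.922).

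Among spindle motors and microtubule-binding proteins, Hmmr showed the largest fold change of the 40. Hmmr (chromosome 11, 40701395 to 40733422, minus strand), which helps organise spindle poles, stood at 6.55, 5.60 and 14.1 FPKM in controls 1 to 3 and 11.1, 11.5 and 10.8 FPKM in STZ 1 to 3. The STZ values were close to one another, and lay between the low controls 1 and 2 and the high control 3 (log2 fold change 0.41 with SE 0.296, 95% interval -0.29 to 1.12; BH-adjusted p by limma = 0.922). Kif11, the motor that pushes spindle poles apart, was at 10.4, 9.68 and 18.4 FPKM in controls 1 to 3 and 12.6, 14.8 and 16.0 FPKM in STZ 1 to 3. Its order was control 3, then the 3 STZ hearts, then controls 1 and 2 (log2 fold change 0.21 with SE 0.237). Nusap1, which bundles spindle microtubules, was at 9.80 ± 2.35 FPKM on average in controls against 10.6 ± 0.785 FPKM with STZ, and Kif2c, which removes tubulin from microtubule ends, at 4.14 ± 1.20 FPKM on average in controls against 4.39 ± 0.788 FPKM with STZ. Kif4, a chromosome-bound motor and the 1 X-linked member, was at 5.17, 4.13 and 7.75 FPKM in controls 1 to 3 and 6.85, 6.80 and 6.77 FPKM in STZ 1 to 3.

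Cytokinesis genes act at the step that many newborn cardiomyocytes leave out. Racgap1 (chromosome 15, 99620496 to 99651656, minus strand), which with Kif23 forms the centralspindlin complex, stood at 8.72, 9.72 and 16.0 FPKM in controls 1 to 3 and 13.9, 13.0 and 13.7 FPKM in STZ 1 to 3. The STZ values sat between control 2 and control 3 (log2 fold change 0.27 with SE 0.209; BH-adjusted p by limma = 0.922). Prc1, which crosslinks the midzone microtubules, was at 6.96, 5.67 and 11.3 FPKM in controls 1 to 3 and 9.81, 10.7 and 9.59 FPKM in STZ 1 to 3. It followed the same order, with control 2 lowest (log2 fold change 0.34 with SE 0.221; BH-adjusted p by limma = 0.922). Anln, encoding the ring protein anillin, was at 8.31 ± 3.53 FPKM on average in controls against 10.4 ± 0.646 FPKM with STZ (log2 fold change 0.36 with SE 0.248). Kif23 was at 4.90 ± 1.43 FPKM on average in controls against 5.57 ± 0.678 FPKM with STZ and the midzone motor gene Kif20a at 9.15 ± 2.99 FPKM on average in controls against 10.3 ± 0.469 FPKM with STZ. Ect2, whose product activates RhoA for the contractile ring, was at 6.26 ± 2.60 FPKM on average in controls against 6.18 ± 1.1 FPKM with STZ, and Cit, encoding citron kinase, had the lowest level of the 40, at 1.06 ± 0.238 FPKM on average in controls against 1.26 ± 0.181 FPKM with STZ. All 7 were higher in STZ by the log2 fold change (median 0.20, against 0.18 for the 40), though the plain mean of Ect2 was lower in STZ and its log2 fold change of 0.03 was below 0 when scaled to the recovered reads.

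**Figure D3:**
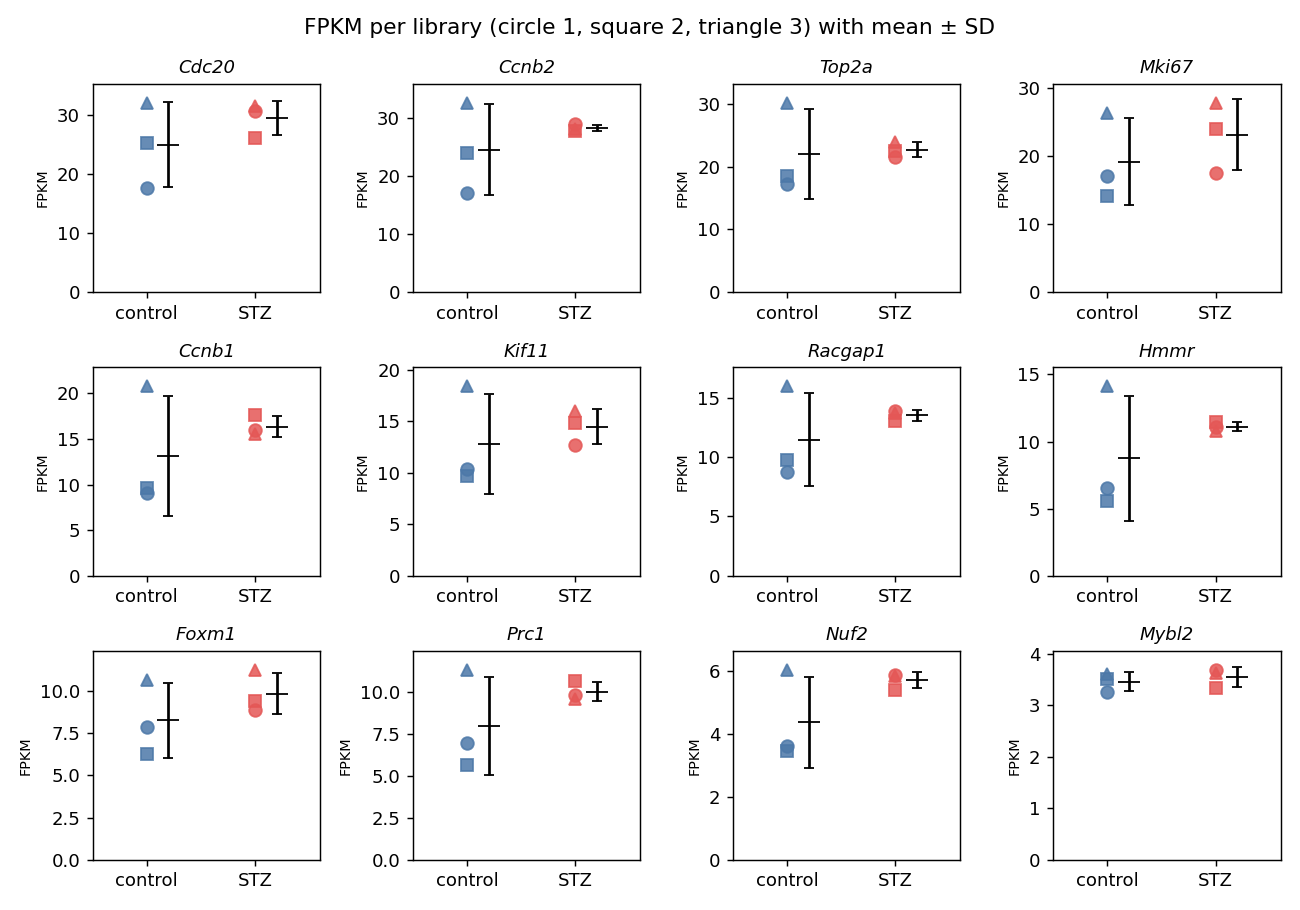
FPKM of 12 members in each heart, with the circle, square and triangle standing for replicates 1, 2 and 3 and the bar for mean ± SD (n = 3). In most panels, on the authors' scale, the control triangle is the highest point, the other controls are the lowest and the STZ points lie between. Mybl2, at 3.26 to 3.68 FPKM on that scale, is nearly level.

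Other genes of the division machinery followed the order of hearts to unequal degrees. Of 123 further mitosis genes tested, 0 passed the BH threshold (limma; 0 at an unadjusted p under 0.05, and 0 with voom), with 88 higher, 35 lower and a median of 0.08. Spindle and centrosome genes were nearest to the 40: 24 of 24 were lowest in control 1 or 2, 17 of 24 were highest in control 3, and the median was 0.18. Their lowest unadjusted p was for Nek2, a centrosome kinase gene, at 3.91, 4.83 and 6.80 FPKM in controls 1 to 3 and 6.57, 6.21 and 7.10 FPKM in STZ 1 to 3 (log2 fold change 0.33 with SE 0.176). Condensin, cohesin and separase genes had 17 of 20 higher and a median of 0.10, led by Espl1, encoding separase, at 2.99 ± 0.686 FPKM on average in controls against 3.76 ± 0.0340 FPKM with STZ. Other kinetochore and checkpoint genes had 24 of 31 higher and a median of 0.071, led by Spdl1 at 3.25 ± 0.521 FPKM on average in controls against 3.80 ± 0.159 FPKM with STZ. Other G2/M control genes had 7 of 13 higher, led by Gtse1, a microtubule-binding gene of G2, at 4.14, 4.04 and 6.29 FPKM in controls 1 to 3 and 6.23, 6.58 and 6.35 FPKM in STZ 1 to 3 (log2 fold change 0.36 with SE 0.158; BH-adjusted p by limma = 0.922). Genes of the APC/C and its regulators, a list of subunits with Fzr1, Ube2s and Fbxo5, had 9 of 17 higher, a median of 0.0017 and a control coefficient of variation of 7.44%. Anapc7 led them by p, at 12.6 ± 0.434 FPKM on average in controls against 13.8 ± 0.237 FPKM with STZ. MuvB, E2F and pocket protein genes had 10 of 18 higher, and Lin37, a MuvB subunit, had the lowest p among them, at 6.12 ± 1.39 FPKM on average in controls against 4.55 ± 0.937 FPKM with STZ (log2 fold change -0.35 with SE 0.182).

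DNA replication genes act earlier in the cycle, and their levels varied less from heart to heart in the listed medians. Of 30 tested, 17 were higher and 13 lower, with a median of 0.013, and 0 passed (limma; 0 at an unadjusted p under 0.05). Control 3 was highest for 6 of 30. The median level of a list, on the log2(FPKM + 1) scale from each gene's mean, was -0.33, -0.23 and 0.31 in controls 1 to 3 and 0.053, 0.031 and 0.16 in STZ 1 to 3 for the 40 mitosis genes. For DNA replication genes it was 0.032, -0.082 and 0.024 in controls 1 to 3 and 0.047, -0.068 and 0.027 in STZ 1 to 3. The difference between the lists was not tested.

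**Figure D4:**
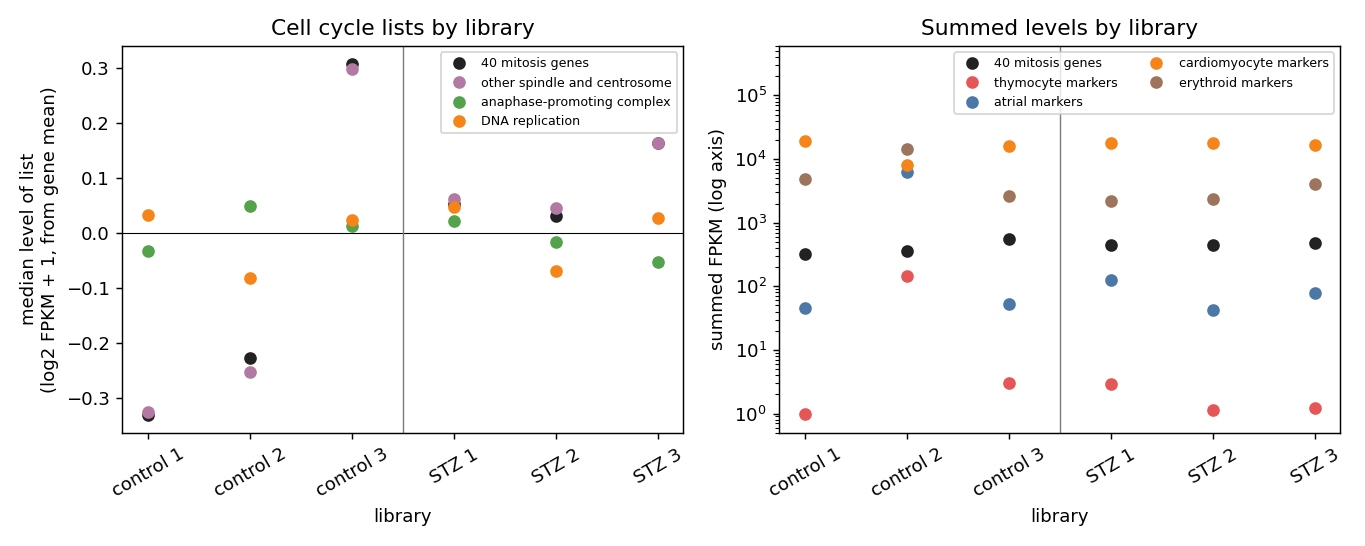
Left, median level of 4 cell cycle lists in each heart, as log2(FPKM + 1) from the gene mean: on the authors' scale, mitosis and spindle genes are low in controls 1 and 2 and high in control 3, APC/C and replication genes stay near 0. Right, summed FPKM (log axis) of the 40 mitosis genes and of cell type markers, where control 2 holds 144 FPKM of thymocyte and 6249 FPKM of atrial markers.

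Some of these values are less certain than others because reads can be shared. Ccnb1 has processed pseudogene copies, of which Ccnb1-ps matches it at 99.2% over 1287 bases and reached 1.02 FPKM. Mybl2 has such a copy in Gm3320, at up to 0.346 FPKM. Exons of Kif20a overlap Cdc23 on the other strand over 29.3% of the merged exon length, those of Ube2c overlap Tnnc2 over 22.8%, those of Kif4 overlap Pdzd11 over 15.1% and those of Ccna2 overlap Exosc9 over 12.5%. Tnnc2 was listed at 0 in all 6 libraries, while Cdc23 reached 7.43 FPKM, Pdzd11 12.9 FPKM and Exosc9 5.03 FPKM. The share for Kif20a is of a merged exon length of 4338 bases in GENCODE M21, against a deposited length of 3796. The strand setting of the counting is not given in the sources used here, so reads of these overlaps cannot be assigned.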

How the data were processed

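Heart RNA of 3 control and 3 STZ offspring was analysed from 1 table of 54532 genes. Per the labels' protocols, the kits were RNeasy for RNA and SMARTER for mRNA-seq libraries. The build was GRCm38 (mm10), per the submitters' processing notes; aligner, counter and strand setting: not given in the sources used here. The authors deposited FPKM-type values, a reading of the table's abbreviation and of the values: each value times the deposited gene length, in bases, was a whole multiple of 1 step per library within 0.01 reads for 100% of values.

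The test was limma 3.58.1 (R 4.3.3) on log2(FPKM + 1) with its trend option. It took in the 12431 genes that reached 1 FPKM in 3 or more samples, group as the only term, two-sided, BH-adjusted over all genes, threshold 0.05. The scale understates changes of low genes. The script that runs this fit was run on simulated FPKM values with known changes; this says nothing of the hearts. Values in every sample are given for Foxm1, Mybl2 and, per role, the member of highest mean and of lowest p, and for a few members added after their values were seen (Ccna2, Ube2c, Pttg1, Kif4); of each other list the gene of lowest p is named. Members and lists were chosen with earlier results of these data known. Alternatives covered pseudocount, filter, scaling, replicate block, each library left out and, added later, voom. Copies were sought with blastn 2.17.0 in GENCODE M21 transcripts, which give 37 of the 40 members the same position. Figures used matplotlib 3.10.9. Ahsp, an erythroid marker, was not analysed here.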

Additional observations from a re-analysis of the deposited data

How the results depend on the processing

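No member passed the BH threshold under any of the 9 settings with all libraries or in any fit without 1 library, and none of the further mitosis or replication genes did. The median log2 fold change over members ranged from 0.018 to 0.39 over fits without 1 library and from 0.12 to 0.22 over the other settings. The log2 fold change turned sign when scaled to the recovered reads for Incenp (-0.033), Ect2 (-0.027) and Mybl2 (-0.026), and with voom for the same 3 genes (-0.034, -0.023 and -0.032); both scale control 2 by its own reads. It also turned in at least 1 fit without 1 library for 17 members, with ranges of -0.23 to 0.11 for Pttg1, -0.045 to 0.10 for Incenp, -0.14 to 0.31 for Ect2, -0.059 to 0.33 for Top2a, -0.084 to 0.30 for Aurka, -0.0082 to 0.24 for Aurkb, -0.051 to 0.24 for Plk1, -0.024 to 0.32 for Bub1b, -0.0056 to 0.37 for Birc5, -0.084 to 0.31 for Cenpa, -0.053 to 0.26 for Kif2c, -0.058 to 0.26 for Tpx2, -0.012 to 0.46 for Ndc80, -0.0045 to 0.33 for Cdca8, -0.044 to 0.40 for Ube2c, -0.0044 to 0.063 for Mybl2 and -0.082 to 0.35 for Bub1. Of these turns 15 came without control 1, 4 without control 2, 1 without STZ 2 and 2 without STZ 3; the cause was not tested. The count of STZ values above controls 1 and 2 went from 34 to 19 members when scaled to the recovered reads, and was 30 with TMM scaling. Members below their mean in control 2 went from 35 to 24 when scaled to the recovered reads, and to 34 with TMM scaling. Members above their mean in STZ 2 went from 28 to 19 and to 24 in the same scalings. The other counts over libraries stayed within 1.5 times, at 34 members inside the control range, 34 highest in control 3 and 40 lowest in control 1 without control 2. Over all genes, 3 passed; the count was 0 with the replicate block, 1 with voom and ranged from 2 to 5 without 1 library.

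With the replicate number as a block (replicate block) 0 of all genes and 0 members passed, and the members' median stayed at 0.18. The numbers do not pair the samples: deviations of same-numbered libraries correlated at 0.021, -0.041 and 0.092, and not every sample correlated best with its own number. The planned edgeR test was not run, since the table holds no counts. With 3 libraries a group, a median 95% interval of ± 0.48 on the log2 scale limits these comparisons.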

Other observations

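Among replication genes, 3 had groups that did not overlap on the authors' scale. Rrm1, encoding the large subunit of ribonucleotide reductase, was at 13.6, 10.9 and 15.7 FPKM in controls 1 to 3 and 16.3, 17.2 and 17.7 FPKM in STZ 1 to 3, with all 3 STZ values above all controls (log2 fold change 0.34 with SE 0.143; BH-adjusted p by limma = 0.922). Pcna, the sliding clamp of the replication fork, was at 44.6, 49.1 and 45.3 FPKM in controls 1 to 3 and 44.5, 44.2 and 39.6 FPKM in STZ 1 to 3 (log2 fold change -0.11 with SE 0.112). Orc6, of the origin recognition complex, was at 6.90, 6.67 and 7.12 FPKM in controls 1 to 3 and 6.63, 6.65 and 6.0 FPKM in STZ 1 to 3 (log2 fold change -0.089 with SE 0.0927). For Pcna and Orc6 the gap was narrow: 44.59 in control 1 against 44.46 in STZ 1, and 6.67 in control 2 against 6.65 in STZ 2. The authors' scale was 0.985-fold the recovered reads in control 1 and 1.01-fold in STZ 1. These Pcna values therefore change order when scaled to the recovered reads. Over all genes tested, 8.54% had groups that did not overlap. These 3 genes were named after their values were seen. Cep55, which acts in the last cut between daughter cells, was named outside the rule of lowest p. It was at 5.88, 6.73 and 11.6 FPKM in controls 1 to 3 and 9.07, 9.08 and 10.3 FPKM in STZ 1 to 3. Control 3 was highest, as for 34 of the 40 mitosis genes, and control 1 lowest, as for 26 of the 40. Cep55 is 1 of 24 further spindle and centrosome genes, of which 17 were highest in control 3.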
